A study of Mus musculus with 3 samples.

Results

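The Notch receptors Notch1, Notch2 and Notch3, the ligands Jag1, Jag2 and Dll1 and the target genes Hes1, Hey1 and Heyl were followed across C2C12 myotubes kept in 3 media. A row of the deposited gene table counted as a member when its gene name equalled one of these 9 symbols. This found 8 of the 9 symbols among 24401 loci, each with 1 locus. Jag2 appears only in a locus that carries the names Jag2 and Nudt14 together, so it is not counted as a member, and the values of that shared locus follow those of the ligands.

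C2C12 is a mouse myoblast line whose cells fuse into multinucleated myotubes when serum is withdrawn. Differentiation took 72 hours in DMEM that held insulin at 1 µg/ml and horse serum at 2%, and each culture then received its test medium for 24 hours. The control group had DMEM, the conditioned media group had 24 hour medium conditioned by the human pancreatic cancer line S2-013, and the resveratrol group had such conditioned medium with 50 µM of the plant polyphenol resveratrol. Each group is 1 library of 1 cell line, so no value has a spread between cultures, no test of a medium was possible, and neighbouring levels could not be called different or alike. No library of resveratrol in control medium was analysed here, so an effect of resveratrol alone cannot be told apart from its effect in conditioned medium. The S2-013 line itself was grown with fetal bovine serum, but the sources used here give no serum content for the control or conditioned medium, so the secretions of S2-013 and a difference in serum cannot be told apart.

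Notch receptors are cell surface proteins that are switched on by ligands of the Delta and Jagged families on a neighbouring cell. ADAM proteases and then γ-secretase cut the bound receptor, and its freed intracellular domain enters the nucleus, joins the DNA-binding protein RBPJ and Mastermind-like coactivators, and turns on target genes. The best known targets are the HES and HEY genes, which encode transcriptional repressors of the basic helix-loop-helix class. In muscle, Notch signalling is known for holding satellite cells, the stem cells of the tissue, and reserve myoblasts back from differentiation. A differentiated culture holds both myotubes and unfused cells, and in RNA of whole cultures fewer cells of a type and less RNA per cell cannot be told apart.

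The libraries had high levels of myotube markers, as the differentiation step in the labels implies, although the labels name the cell type as myoblast. Of 10 myotube markers, 9 were in the table, and the most abundant, Acta1 (skeletal muscle actin) and Mylpf (a fast myosin light chain), stood at 1568, 1496 and 2272.5 FPKM and at 1766, 1318 and 1832 FPKM. FPKM, fragments per kilobase scaled for library size, are the authors' values, corrected for transcript length. How the libraries were scaled is not named in the sources used here. Values are given throughout in the order control, conditioned media, resveratrol. All 6 endothelial and all 4 adipocyte markers were below 1 FPKM in every library, and the macrophage genes Ptprc and Adgre1 were listed at 0. Summed FPKM of all loci ran from 2953950 to 3384770 per library, read totals are unknown, and 11609 to 12004 loci reached 1 FPKM.

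Differences are log2 ratios of FPKM + 1, a scale that understates the change of low genes. A gene was past the size rule when this ratio was 1 or more in absolute value, that is a doubling or a halving, and its mean over the 3 libraries was 1 FPKM or more, which left 11858 loci. The authors' deposited table also holds calls by Cuffdiff, a program that tests FPKM differences. With 1 library a side such a call compares these libraries and not the media. The 3 comparisons share libraries, so their counts are not independent of each other.

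In conditioned media, the targets Hes1 and Heyl stood lower and the receptors Notch2 and Notch3 stood higher than in control. Heyl, a HEY-family repressor, was the 1 of 8 members past the size rule and was lower, where 0.751% of all loci were lower by that rule, and 0 members were higher, where 1.98% of loci were. The authors' deposited table calls 3 of 7 tested members higher (Notch2, Notch3 and Dll1), against 25.8% of all tested loci, and 2 lower (Hes1 and Heyl), against 29.9%. The median log2 ratio of the 8 members was 0.022, with 4 above 0 and 4 below (6 and 2 when FPKM were rescaled to a common sum over all loci, called TPM), and that of all loci was -0.011. Heyl was inside the rule by a small margin, at -1.02, and outside it at -0.58 with TPM and at -0.53 with a pseudocount of 5 FPKM. Rescaling to TPM moved the all-loci median to 0.14 in this comparison and in that of resveratrol with control. TPM values were smaller than FPKM and 1 was still added to them, so TPM also shrank ratios as a larger pseudocount does.

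With resveratrol added to conditioned media, all 8 members had lower values. Notch3 and Heyl passed the size rule as lower, 2 of 8 where 4.97% of all loci did, and 0 were higher, where 1.53% of loci were. The authors' deposited table calls 5 of 6 tested members lower (Notch1, Notch2, Notch3, Dll1 and Hes1), against 29.5% of tested loci, and 0 higher, against 34.1%. The median log2 ratio was -0.63, while that of all loci was 0.025, with 47.4% of them below 0. Heyl and Notch3 lay just inside the rule at -1.0 and -1.03, and the next members, Dll1 and Hes1, lay outside it at -0.81 and -0.78. With TPM, Heyl and Notch3 were outside it too, at -0.53 and -0.93, and with a pseudocount of 5 FPKM at -0.36 and -0.84. The summed FPKM were nearly equal, 2953950 with conditioned media and 2956880 with resveratrol, so TPM hardly changed how these libraries were scaled to each other. The smaller TPM ratios here come from adding 1 to smaller values, as with a larger pseudocount.

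Between the resveratrol and the control libraries, 7 of 8 members had lower values, where 49.9% of all loci did. With TPM 6 of 8 members had lower values, while the all-loci median moved up to 0.14. Hes1 and Heyl passed the size rule as lower, where 5.25% of all loci did, and 0 were higher, where 3.6% of loci were. With TPM Hes1 was outside the rule at -0.91, and with a pseudocount of 5 FPKM Heyl was outside it at -0.89. The authors' deposited table calls 5 of 7 tested members lower (Notch1, Notch3, Dll1, Hes1 and Heyl), against 34.1% of tested loci, and 1 higher (Notch2), with the same 34.1% of tested loci called higher. The median log2 ratio of the 8 members was -0.52, and that of all loci was 0.00021.

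**Figure D1:**
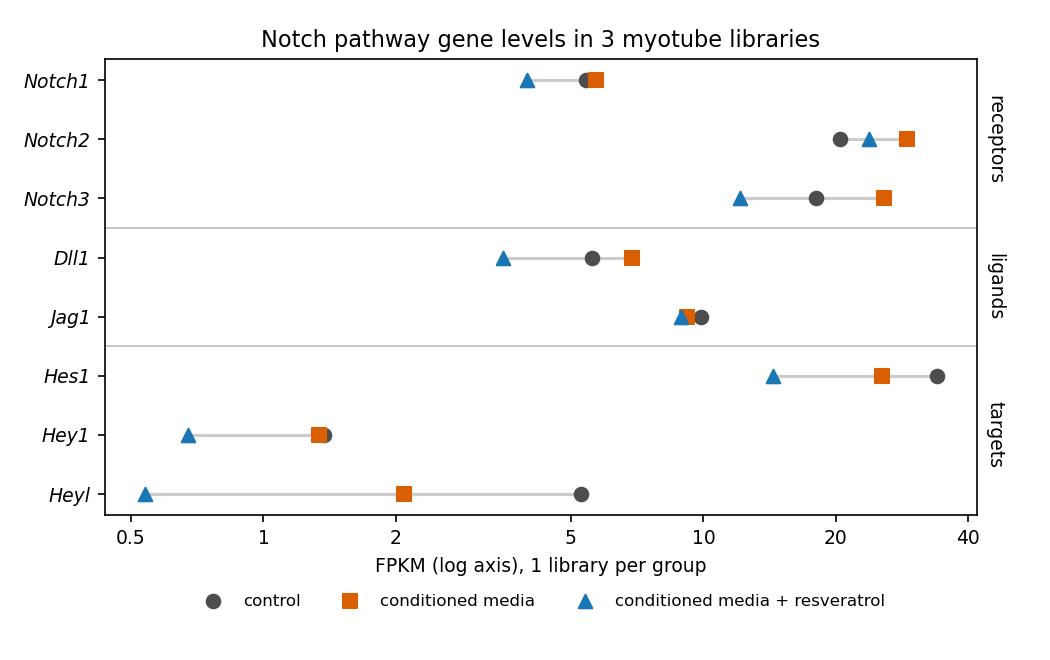
FPKM of the 8 members (log axis) in the control (circle), conditioned media (square) and resveratrol (triangle) libraries, 1 library per point, with a grey line over the range of each gene. The triangle lies to the left of the square in every row, furthest for Heyl at 0.537 against 2.08 FPKM.

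**Figure D2:**
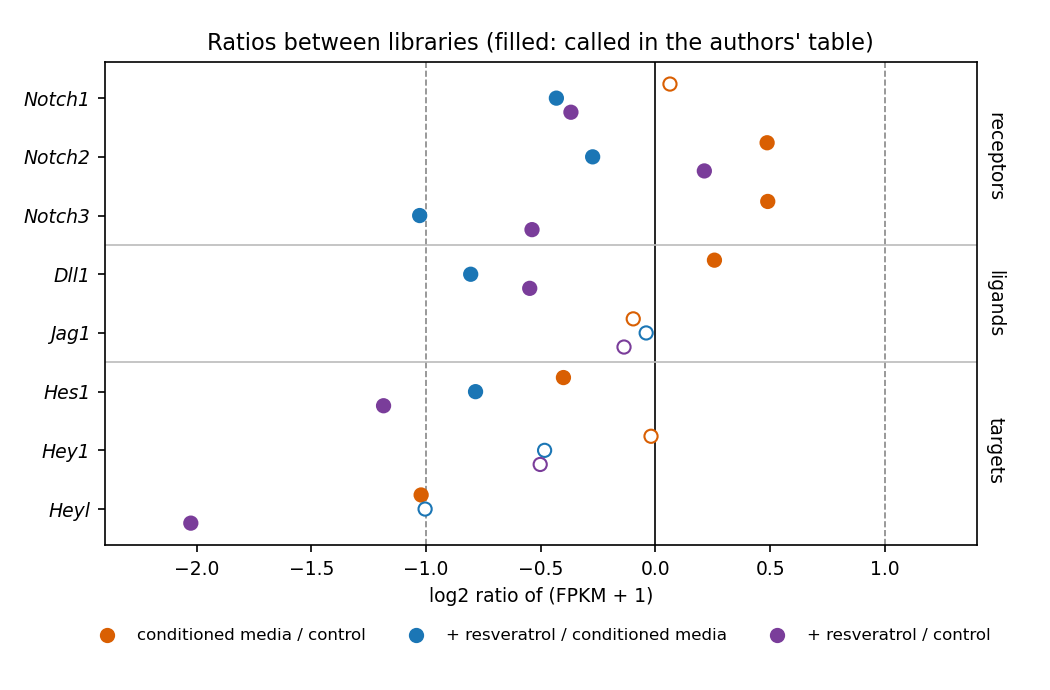
Log2 ratio of FPKM + 1 for each member in the 3 comparisons, with dashed lines at the size rule and filled points where the authors' deposited table calls the locus. The conditioned media ratios of Notch2, Notch3 and Dll1 are right of 0 and those of Hes1 and Heyl left of it, and the ratios of resveratrol over conditioned media are all left of 0.

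Of the receptors, Notch2 and Notch3 made up most of the receptor RNA in each library. Notch3, a receptor known from satellite cells and from the mural cells of vessels, stood at 18.0, 25.7 and 12.1 FPKM. It was highest in conditioned media and lowest with resveratrol. Its log2 ratio was 0.49 for conditioned media over control, -1.03 for resveratrol over conditioned media and -0.54 for resveratrol over control. In the authors' deposited table its log2 fold changes are 0.51, -1.09 and -0.57, each with the smallest q that the table gives, 0.000148. The gene lies on the minus strand of chromosome 17, positions 32120820 to 32166852 of GRCm38, the assembly that mm10 stands for, with 33 exons in its longest coding transcript. The antisense gene Gm17276 shares 21024 bases of that span, and since the TruSeq version 2 kit named in the labels does not mark strand, reads of the 2 genes cannot be told apart where both are transcribed.

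Notch2, the receptor with the highest FPKM in each of the 3 libraries, stood at 20.4, 29.0 and 23.8 FPKM. Unlike Notch3, its level with resveratrol lay above control. The log2 ratios were 0.49, -0.27 and 0.21 in the same order of comparisons, the last of which was 0.069 when scaled on loci longer than 200 bases and 0.37 with TPM, and the authors' deposited table calls all 3 differences. Notch1, the receptor best studied in satellite cell activation, stood at 5.41, 5.70 and 3.97 FPKM. Control and conditioned media were close for Notch1, with a log2 ratio of 0.063 that turned to -0.013 when libraries were scaled on loci longer than 200 bases, and the resveratrol library was lower at -0.43 against conditioned media. Notch2 lies on chromosome 3, positions 98013527 to 98150361, and Notch1 on chromosome 2, positions 26457903 to 26516663, each with 34 exons. The microRNA gene Mir6996 lies within Notch1 and is listed at 0 in the 3 libraries. On the other strand, 0610009E02Rik and Gm13568 share 1488 and 414 bases with Notch1. Gm42819 and Gm42820, on the same strand, share 5121 and 3063 bases with Notch2. None of these has a locus of its own name among the deposited loci.

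The composition of receptor RNA differed between the libraries. Notch2 was 46.6%, 48.0% and 59.7% of the summed FPKM of the 3 receptors, Notch3 was 41.1%, 42.6% and 30.3%, and Notch1 was 12.3%, 9.43% and 9.94%. The ratio of Notch2 to Notch3 was 1.13 in control and again 1.13 in conditioned media, and 1.97 with resveratrol. Summed over Notch1, Notch2 and Notch3, the receptors stood at 43.9, 60.4 and 39.9 FPKM. These ratios are between genes within a library and do not depend on how libraries were scaled.

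Of the ligands, Dll1 had a wide range over the libraries and Jag1 a narrow one. Dll1, the Delta-like ligand that myogenic cells present to their neighbours, stood at 5.58, 6.86 and 3.5 FPKM. The resveratrol library was the lowest and conditioned media the highest, as for Notch3. Its log2 ratios were 0.26, -0.81 and -0.55. The authors' deposited table calls all 3, with q = 0.0123 for conditioned media over control. Dll1 lies on the minus strand of chromosome 17, positions 15367354 to 15376872, with 11 exons, and the noncoding RNA gene A930024N18Rik on the other strand shares 1873 bases with it.

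Jag1, a Jagged ligand, stood at 9.86, 9.15 and 8.88 FPKM, the narrowest range of the 8 members. Its log2 ratios were -0.097, -0.040 and -0.14, and the authors' deposited table calls none of them. The first and the last turned to 0.067 and 0.032 with TPM, so the direction of Jag1 against control depended on the scaling. Jag1 lies on chromosome 2, positions 137081456 to 137116644, with 26 exons and no overlapping gene in GENCODE M21. The ratio of Jag1 to Dll1 was 1.77, 1.33 and 2.54. The shared locus of Jag2, also a Jagged ligand, and Nudt14, a neighbouring gene, stood at 22.7, 29.9 and 26.5 FPKM, and how much of this is Jag2 is unknown.

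Promoters of Notch3, Dll1 and Jag1 are shown because Notch3 and Dll1 were both well below their conditioned media level with resveratrol, while Jag1 was close to it. Windows of 300 bases, 250 before to 50 after the start of transcription, were taken from RefSeq on GRCm38.p6, which held 7 windows for 6 of the 9 symbols (Notch1, Notch2, Notch3, Jag1, Jag2 and Dll1) and none for Hes1, Hey1 and Heyl. Both strands were searched for TGGGAA, the core of the RBPJ site, and for CACNAG, the N box that HES proteins bind. TGGGAA was in 0 of the 7 windows and in 25.6% of all 32851 windows, and CACNAG was in 4 of 7 and in 42.5% of all. Capitals mark CACNAG on either strand, and the sequences read 5′ to 3′ on the strand of the gene, which is minus for these 3. The Notch3 window is chr17:32166841-32167140, the Dll1 window, chosen of 2 because its start site is the end of the deposited locus, is chr17:15375774-15376073, and the Jag1 window is chr2:137116471-137116770.
Notch3: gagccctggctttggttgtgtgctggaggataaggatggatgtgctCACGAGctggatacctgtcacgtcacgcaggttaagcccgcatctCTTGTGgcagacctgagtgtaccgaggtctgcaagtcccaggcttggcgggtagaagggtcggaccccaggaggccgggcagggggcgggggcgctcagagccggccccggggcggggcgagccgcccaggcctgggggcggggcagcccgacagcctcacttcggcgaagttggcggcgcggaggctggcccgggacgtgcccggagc
Dll1: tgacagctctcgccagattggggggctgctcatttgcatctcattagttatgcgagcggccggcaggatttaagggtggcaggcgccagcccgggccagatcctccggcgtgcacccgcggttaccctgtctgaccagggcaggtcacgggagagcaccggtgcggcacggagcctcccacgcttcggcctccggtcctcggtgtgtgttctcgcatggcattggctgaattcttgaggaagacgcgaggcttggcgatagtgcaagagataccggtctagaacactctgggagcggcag
Jag1: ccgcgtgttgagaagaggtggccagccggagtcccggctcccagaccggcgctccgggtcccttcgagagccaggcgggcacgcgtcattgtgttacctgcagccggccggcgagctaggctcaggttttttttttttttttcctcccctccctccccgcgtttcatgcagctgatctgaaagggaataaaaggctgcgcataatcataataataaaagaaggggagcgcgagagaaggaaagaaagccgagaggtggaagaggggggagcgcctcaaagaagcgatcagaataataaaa
The Notch3 window held 2 matches, beginning 204 and 159 bases before the start site, and the Dll1 and Jag1 windows shown held none. The other Dll1 window had 1, and Notch1 had 3, of which 2 overlap each other. A match is only a run of letters, and these data hold no measurement of binding.

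Of the target genes, Hes1 was the most abundant and Heyl had the widest range. Hes1, a repressor that also acts on its own promoter, stood at 33.9, 25.5 and 14.4 FPKM. It was the highest of the 8 members in control, and Notch2 and Notch3 were above it in conditioned media. Its log2 ratios were -0.40 for conditioned media over control, -0.78 for resveratrol over conditioned media and -1.19 for resveratrol over control. The authors' deposited table calls all 3 lower, the first with q = 0.0469, close to the limit. The statistic listed beside that call, -1.15, is smaller in size than a normal score for its listed p of 0.0262 would be, so the p does not come from that statistic as a normal score. The Dll1 call in the same comparison, with q = 0.0123, likewise has a statistic of 1.4 beside a Cuffdiff p of 0.0059. The mismatch is therefore not particular to Hes1. Dividing the fold change by the test statistic in the authors' deposited table gives the error that Cuffdiff attached to a log2 fold change if the statistic is their quotient, which need not be the error behind its calls, and this was 0.34 to 0.42 for Hes1, a short transcript of 1468 bases, against 0.060 to 0.065 for Notch2, of 10500 bases. Hes1 lies on chromosome 16, positions 30064384 to 30067796, with 4 exons.

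Heyl, which muscle stem cells and vascular smooth muscle are known to express, stood at 5.26, 2.08 and 0.537 FPKM. Control was the highest and resveratrol the lowest, at 0.102 of the control FPKM. The log2 ratios were -1.02, -1.0 and -2.03. A lower ratio than that of Heyl was held by 0.692% of loci for conditioned media over control, 4.91% for resveratrol over conditioned media and 0.481% for resveratrol over control. The authors' deposited table calls Heyl lower in both comparisons with control, with log2 fold changes of -1.34 and -3.29, and marks resveratrol over conditioned media as not tested. Heyl lies on chromosome 4, positions 123233556 to 123249875, with 5 exons and no overlapping gene.

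Hey1, of the same family, was the lowest member in control and conditioned media, at 1.37, 1.34 and 0.673 FPKM. Control and conditioned media were close, and resveratrol was at 0.503 of the conditioned media FPKM. The log2 ratios were -0.019, -0.48 and -0.50, the first of which turned to 0.049 with TPM. The authors' deposited table tests none of the 3 comparisons for Hey1, on chromosome 3 at positions 8663359 to 8667256.

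Target RNA was lower and receptor RNA higher in conditioned media than in control. Summed over Hes1, Hey1 and Heyl, the targets stood at 40.6, 28.9 and 15.6 FPKM, while the receptors had the sums given above, highest in conditioned media. Target FPKM per receptor FPKM came to 0.925, 0.478 and 0.390. Hes1 made up 83.7%, 88.2% and 92.2% of the target sum, so that sum mostly follows Hes1, and the ratio of Hes1 to Heyl was 6.45, 12.2 and 26.8. The ligands Jag1 and Dll1 summed to 15.4, 16.0 and 12.4 FPKM, a narrower range than that of receptors or targets.

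**Figure D3:**
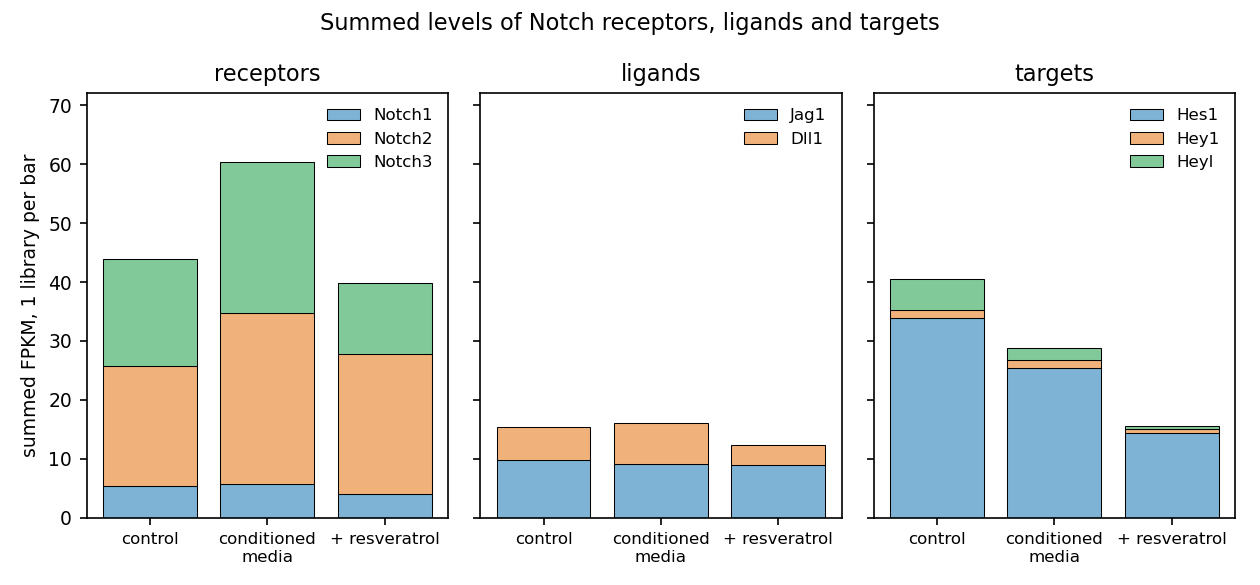
Stacked FPKM of the receptors (left), ligands (middle) and target genes (right) in the 3 libraries, 1 library per bar, with axes from 0. The receptor bar is tallest in conditioned media at 60.4 FPKM, whereas the target bar goes from 40.6 in control to 28.9 and 15.6 FPKM.

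**Figure D4:**
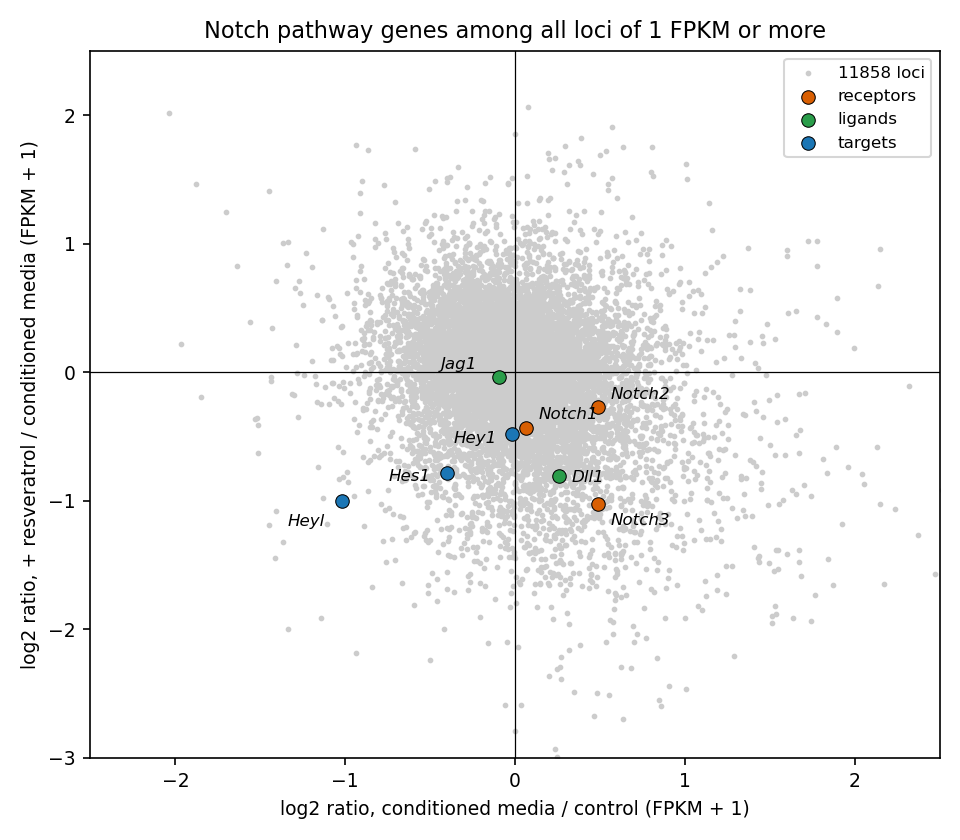
Each grey point is 1 of 11858 loci with its log2 ratio for conditioned media over control (x) and for resveratrol over conditioned media (y), and 35 loci lie outside the axes. Both axes contain the conditioned media library. Notch2, Notch3 and Dll1 lie right of 0, Hes1 and Heyl left of it and Notch1, Jag1 and Hey1 close to it, and all 8 members lie below 0 on the y axis.

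The genes nearest to a member in the plane of both ratios were looked up for the member of each role with the widest range, among 10680 single-symbol genes. For Notch3 they were Ccnb2, a mitotic cyclin, at 14.7, 21.0 and 9.87 FPKM, Adgrg3 and Shc2, and 16 genes lay within 0.1. For Dll1 they were Cd109, Klf7 and Ssc5d, with 53 genes within 0.1. Heyl had 0 genes within 0.1, and its nearest were Bok, a BCL2-family gene, at 37.6, 16.7 and 7.97 FPKM, the interferon-induced Oas2 and Arhgap22, at distances of 0.11 to 0.18. With 3 libraries such likeness rests on 2 ratios. For Heyl, at 0.537 FPKM with resveratrol, it also rests on the pseudocount of 1. Its log2 ratio of resveratrol over conditioned media was -1.0 with that pseudocount, and the authors' log2 fold change without one is -1.96.

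The rest of the pathway was read from a list of 62 genes, all in the table, of which 43 had a mean of 1 FPKM or more. In conditioned media over control, 0 of these 43 passed the size rule and the authors' deposited table calls 9 higher and 16 lower, where 25.8% and 29.9% of all tested loci were called. Of their ratios, 15 were above 0 and 28 below, that is 65.1% below, against 51.3% of all loci. Centring on the all-loci median gave 16 above and 27 below. TPM gave 29 and 14, and scaling on loci longer than 200 bases gave 11 and 32. Those 2 settings also moved the all-loci median, to 0.14 and -0.092, so the split of the list depended on the scaling. With resveratrol over conditioned media, 2 passed as lower and 0 as higher, where 4.97% and 1.53% of all loci did. The authors' deposited table calls 18 of the 43 higher and 13 lower there, against 34.1% and 29.5% of all tested loci, and the median was 0.078. For resveratrol over control, 2 passed as higher and 2 as lower, where 3.6% and 5.25% of all loci did, and scaling on loci longer than 200 bases turned this to 1 and 5. The authors' deposited table calls 12 higher and 17 lower, against 34.1% of all tested loci in each direction. Of the 43 ratios 19 were above 0, and 27 with TPM but 10 when scaled on the longer loci. The lower values that the 8 members had with resveratrol were not seen across the list, where 24 of 43 ratios were above 0.

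The 2 listed genes past the rule with resveratrol were Lfng and Dtx4. Lfng, lunatic fringe, a glycosyltransferase that adds sugars to Notch receptors and changes which ligands they answer, stood at 6.24, 3.82 and 1.04 FPKM. Its log2 ratios were -0.59, -1.24 and -1.83. Its library order was that of Heyl and Hes1. The other glycosylation genes differed less between the conditioned media libraries: Pofut1, which fucosylates the receptors, stood at 15.5, 9.97 and 11.1 FPKM, Rfng at 10.4, 7.83 and 7.67 FPKM and Poglut1 at 27.1, 22 and 22.5 FPKM. All 4 of these genes were lower in conditioned media than in control, as were 51.3% of all loci. Their median log2 ratio was -0.48. Cuffdiff called each of the 4 lower in that comparison, against 29.9% of all tested loci.

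Dtx4, a Deltex-family ubiquitin ligase, stood at 7.65, 5.67 and 2.14 FPKM. The ratios on the log2 scale were -0.38, -1.09 and -1.46. Of the same group, Dtx3l was at 32.4, 30.3 and 17.4 FPKM and Neurl1a, a neuralized-type ligase, at 21.9, 24.3 and 34.0 FPKM. Of the 12 ubiquitin and trafficking genes at 1 FPKM or more, 6 had ratios above 0 with resveratrol and 6 below.

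Genes of receptor cleavage mostly lay on the other side with resveratrol over conditioned media. Of 9 ratios 7 were above 0, as were 6228 of 11858 loci. Their median was 0.20, and 0 of the 9 passed the size rule in that comparison. Psen2, a catalytic subunit of γ-secretase, stood at 7.05, 9.93 and 16.2 FPKM, and its ratio for resveratrol over control, 1.10, passed the size rule. Aph1b, a further γ-secretase subunit, was at 4.74, 5.76 and 8.60 FPKM. The most abundant subunit gene, Psenen, was close in the 3 libraries at 70.9, 63.4 and 62.1 FPKM, and Furin, the protease that first cuts the receptor on its way to the surface, was at 40.6, 32.5 and 25.1 FPKM.

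In the nuclear complex, 8 of 17 ratios were above 0 with resveratrol. Cir1, a corepressor that binds RBPJ, stood at 12.2, 21.4 and 35.8 FPKM and passed the size rule for resveratrol over control with a log2 ratio of 1.48. Maml2, a Mastermind-like coactivator, was at 5.21, 4.37 and 2.21 FPKM, the acetyltransferase gene Kat2a at 21.9, 12.2 and 11.3 FPKM and the corepressor Ctbp1 at 80.6, 57.1 and 66.4 FPKM. Rbpj itself, chosen for naming after its values were seen, stood at 44.0, 60.3 and 44.6 FPKM, highest in conditioned media as were the receptors. Of the 7 genes listed as other targets, 6 were below 1 FPKM in every library, among them Hes5, listed at 0. The exception, Hes6, is a HES-family gene that promotes myogenic differentiation, and it stood at 66.7, 49.6 and 62.5 FPKM. Whether Hes6 responds to Notch in these cells was not tested, so its level is not a readout of Notch. Notch4 and Dll4 were also below 1 FPKM in every library, and Dlk2, the most abundant of the other receptors and ligands, was at 1.07, 0.573 and 1.14 FPKM.

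**Figure D5:**
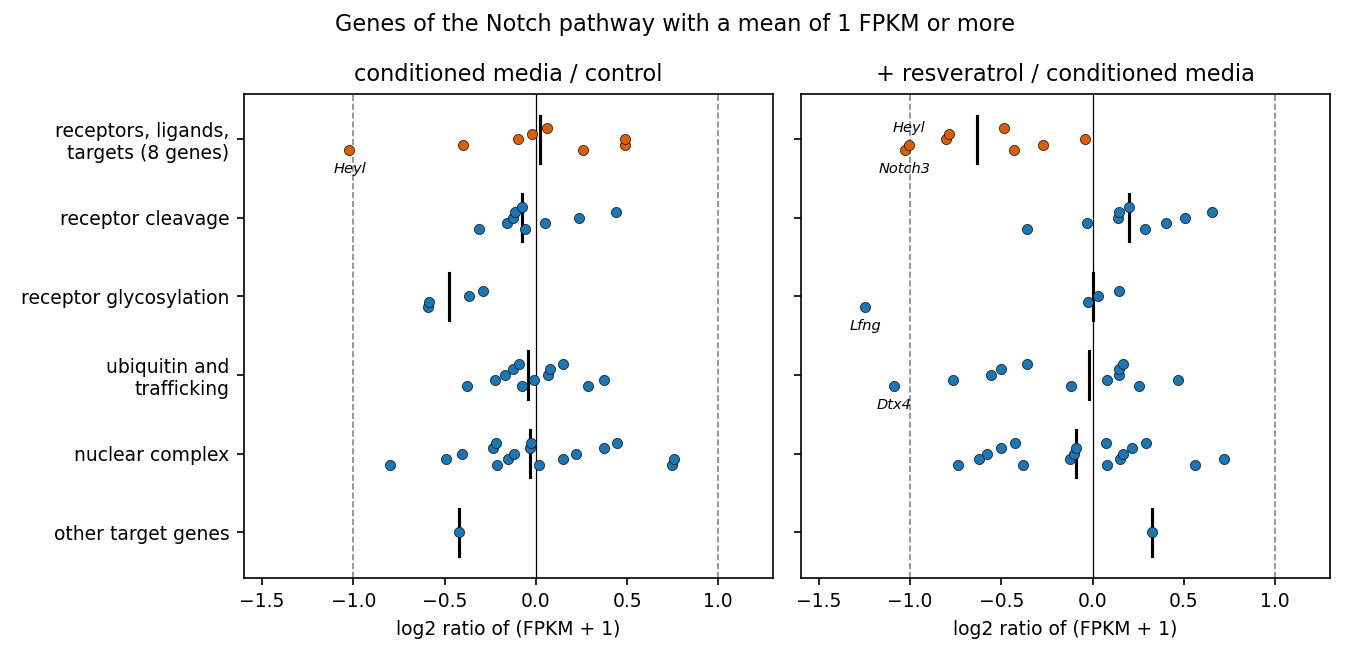
Log2 ratios of the members and of the other pathway genes with a mean of 1 FPKM or more, by group, for conditioned media over control (left) and resveratrol over conditioned media (right). Points are genes, black bars are medians, dashed lines mark the size rule and genes past it are named. On the right the members' median is -0.63 and that of receptor cleavage is 0.20.

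Markers of other cell states differed between the libraries too. The 8 proliferation markers had lower values with resveratrol in all 8 cases, 7 past the size rule where 4.97% of all loci were lower by it, and summed to 229, 294 and 54.2 FPKM, with Top2a at 47.4, 59.3 and 12.5 FPKM and Ube2c at 43.5, 59.9 and 5.29 FPKM. Like Notch2, Notch3 and Dll1, these 8 genes had their highest deposited FPKM in conditioned media, Ccna2 by only 0.035 on the log2 scale over control. The 10 satellite and reserve cell markers summed to 399, 479 and 522 FPKM, led by Itga7 at 148, 167 and 144 FPKM, then by Sdc4 at 80.6, 117 and 174 FPKM. Of the 7 with a mean of 1 FPKM or more, 5 were lower with resveratrol than in conditioned media, where 47.4% of all loci were. The other 2, Sdc4 and Vcam1, were higher, Vcam1 at 42.6, 49.2 and 78.0 FPKM. Calcr was listed at 0. Myf5, a determination factor of unfused myoblasts, was at 10.9, 9.23 and 2.69 FPKM. It was the 1 of its list past the rule for resveratrol over conditioned media, where 4.97% of all loci were lower by it. Pax7, the defining satellite cell factor, was at 1.04, 0.699 and 0.271 FPKM.

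The 9 myotube markers summed to 6070, 5271 and 7672 FPKM, a sum carried by Mylpf, Acta1 and Myl1. With resveratrol 7 of the 9 were above their conditioned media value and 2 below it, Tnnc2 at 450, 382 and 322.5 FPKM and Ckm at 60.8, 56.3 and 43.2 FPKM. All 9 are called in these directions in the authors' deposited table, where 34.1% of tested loci are called higher and 29.5% lower. The 5 fibroblast markers summed to 932, 1116 and 578 FPKM, with Col1a1 at 899, 1056 and 527 FPKM and Dcn at 27.8, 48.9 and 43.6 FPKM, while Thy1 stayed below 1 FPKM. The 7 pericyte and smooth muscle markers summed to 966, 525 and 683 FPKM, nearly all of it Acta2 at 892, 468 and 637 FPKM, an actin that myoblasts also express, and Pdgfrb at 63.4, 45.5 and 39.7 FPKM, whereas Rgs5, Myh11, Kcnj8 and Abcc9 were below 1 FPKM. Cspg4, of the same list, was at 9.86, 11.4 and 6.27 FPKM, highest in conditioned media and lowest with resveratrol, the library order of Notch3. The 5 macrophage markers summed to 6.72, 8.43 and 6.0 FPKM, mostly Cd14 at 5.52, 6.53 and 4.14 FPKM and Cd68 at 1.02, 1.49 and 1.82 FPKM. The summed endothelial markers, led by Cdh5 and Pecam1, were at 0.443 FPKM or less, and the adipocyte markers, led by Fabp4 and Adipoq, at 0.425 FPKM or less. The part of these cell states in the Notch differences was not tested.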

How the data were processed

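RNA of 3 libraries, 1 per treatment label, was compared. Per the submitters' processing notes, reads were handled with Cuffdiff 2.2.1.3 and Cufflinks 2.2.1.0, TopHat2 2.1.0 with Bowtie, Trim Galore 0.4.3.1 and FastQC 0.69, and the build was mm10. No source used here names the annotation, the strand option or the library scaling. The deposited table, with 24401 loci in Cuffdiff's layout, holds FPKM computed by the authors, their log2 fold change without a pseudocount, the test statistic (a score), and p-values and q-values as deposited, with a smallest p of 5e-05.

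Depth is unknown: among 4286 low loci that were not tested, the most frequent ratio between libraries was held by 9, so whole reads could not be recovered. With Python 3.11.15, pandas 2.3.3 and matplotlib 3.10.9, log2 ratios were computed with a pseudocount of 1 FPKM and the size rule applied, after a check on simulated data. Positions and overlapping genes came from GENCODE M21. The members and the gene lists were chosen with earlier results of these data known. Named were all members and Jag2, up to 3 genes per pathway group by range plus the most abundant, the 3 genes nearest to the widest member of each role, and 2 markers per list by level. Rbpj, Hes5, Notch4, Dll4, Myf5, Pax7, Vcam1, Ccna2, Tnnc2, Ckm, Myl1, Cspg4 and the low or absent markers were named in addition. Another 9 settings were tried: the pseudocount, scaling, the filter, the threshold and the choice of locus.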

Additional observations from a re-analysis of the deposited data

How the results depend on the processing

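Of 186 member ratios recomputed under the alternatives, 174 kept their sign and their side of the size rule, 8 dropped below it, 4 changed sign at ratios within 0.14 of 0, and 0 passed it anew. The filter settings and the choice of locus could not change a ratio, because a filter only keeps or drops genes and each member has 1 locus. Their ratios are among the 174, so that count overstates how stable the ratios are. All 8 members stayed below 0 for resveratrol over conditioned media under each alternative that kept them. The number past the size rule is given here in the order conditioned media over control, resveratrol over conditioned media, resveratrol over control. It was 1, 2 and 2 members, and became 0, 0 and 1 at a pseudocount of 5, 0, 0 and 1 after rescaling to TPM, and 0, 1 and 1 at a mean of 5 FPKM or more, which leaves out Hey1 and Heyl. A 1.5-fold threshold gave 4 members for resveratrol over conditioned media, all lower (1500 of 11858 loci were). Of its 43 genes, the pathway list had 0, 2 and 4 past the rule, and 5, 7 and 12 at 1.5-fold. The 1.5-fold counts were 2 higher and 3 lower, then 2 and 5, then 5 and 7. Over all 11858 loci they were 881 and 583, then 900 and 1500, then 1351 and 1663. For resveratrol over conditioned media the list had 0 at the pseudocount of 5, 0 with TPM and 1 at the mean of 5. For resveratrol over control it had 1 at the pseudocount of 5, and for conditioned media over control 1 with no filter, Neurl3. At a pseudocount of 5, Heyl stood at -0.53, -0.36 and -0.89 and Notch3 at -0.84 for resveratrol over conditioned media. With TPM they were -0.58 and -0.53 for the first 2 ratios of Heyl, -0.93 for Notch3, and -0.91 for Hes1 over control. Since 1 was still added to the smaller TPM values, this setting changes the pseudocount in effect as well as the scaling.

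Scaling on loci longer than 200 bases shifted the all-loci median to -0.092 for conditioned media over control and -0.13 for resveratrol over control. Loci of 200 bases or less held 78.4% to 83.0% of the summed FPKM. The share of higher among loci past the size rule was 72.5% for conditioned media over control, 59.6% at the pseudocount of 5 and 83.0% with TPM. For resveratrol over control it was 40.7%, 61.8% with TPM and 26.6% when scaled on the longer loci. No paired analysis was possible because each group has 1 library, and leaving out a library leaves no comparison. Depth is unknown, so no counting error is given for any member.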
